A study of Homo sapiens with 6 samples.

Results

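The PARP family members described here are 10 genes, PARP1, PARP2, PARP3, PARP4, PARP8, PARP9, PARP10, PARP12, PARP14 and TNKS, taken by symbol from gene tables of 57820 rows. All 10 were found, and all 10 passed the filter on low counts, which kept 17679 genes. RNA was measured in 3 MYC libraries and 3 control libraries of U266, a human myeloma cell line. The MYC cells were transduced with a lentivirus that drives MYC from the EF1A promoter, and both groups grew in RPMI-1640 with 10% FBS and penicillin and streptomycin. The labels say neither whether the controls carry a vector nor whether the libraries of a group came from separate cultures, so the p-values measure the spread between these libraries, which may be technical.

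PARP enzymes take ADP-ribose from NAD and attach it to proteins or nucleic acids, and release nicotinamide, which the salvage pathway turns back into NAD. PARP1, PARP2 and the tankyrases build chains of ADP-ribose, whereas most other members attach single units, and PARP9 acts with a partner ubiquitin ligase, DTX3L. The chain-forming nuclear members are known for DNA break repair, and several of the others are interferon-induced genes. The series title names an NAD salvage enzyme, NAMPT, as a MYC-linked dependency, and the comparison shows how RNA of these NAD consumers differed between MYC and control cells.

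Summed counts were 27139978, 158667309 and 52816733 in the MYC libraries and 55026416, 77933587 and 130576913 in the controls, a 5.85-fold range, and the 10 members together held 21752 counts in the shallowest library. MYC itself had 105, 110 and 92.1 CPM in MYC libraries, against 3.91, 4.16 and 4.51 CPM in controls (CPM puts the libraries on 1 depth scale using TMM factors). The plasma cell markers were present in both groups, with summed levels of 5796 to 8072 CPM in MYC libraries and 11739 to 14853 CPM in controls. All 10 of them averaged at least 1 CPM, and IGLC2 alone averaged 4277 CPM in MYC libraries and 6822 CPM in controls. In the edgeR test used below, 7 of the 10 were called lower, 1 (CD38) was called higher and 2 were not called. Of all genes tested, 32.1% were called lower and 28.8% higher. Markers of T and NK cells (4 of 7 at 1 CPM or more) summed to 16.8 to 18.7 CPM in MYC libraries and 9.36 to 11.8 CPM in controls. Of these markers 6 were tested, with 5 called higher and 1 lower. Epithelial markers (2 of 5 at 1 CPM or more) summed to 6.64 to 7.70 CPM in MYC libraries and 3.83 to 4.63 CPM in controls. Stromal markers (2 of 6, with LUM at 0 in every library) summed to 9.56 to 10.7 CPM in MYC libraries and 9.81 to 12.0 CPM in controls, and the 7 myeloid markers to at most 1.12 CPM in any library. The part of these marker differences in the results was not tested. Fold changes in this series moved with GC content: genes with 42 to 46% GC had a median log2 fold change of 0.20, and genes with 62 to 66% had -1.26. Each member's change is therefore given both without and with an offset that removes this trend in each library (the GC offset).

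Of the 10 members, 5 were called higher in MYC cells, 4 were called lower and 1 did not pass the test (edgeR quasi-likelihood test, called at an adjusted p under 0.05 over all genes). Of all genes tested, 28.8% rose, 32.1% fell and 60.8% were called in either direction, and the median log2 fold change was 0.10 over the members and -0.02 over all genes. PARP1, PARP2, PARP4, PARP9 and PARP14 were the members called higher in this fit, and PARP3, PARP8, PARP10 and TNKS those called lower. With the GC offset PARP1, PARP4 and PARP9 were higher, PARP8, PARP10 and TNKS were lower and 4 members were not called, where 30% of all genes rose and 29.3% fell. PARP1 was the most abundant member and PARP10 the one that fell furthest. The groups did not overlap in CPM for 9 of the 10 members, and for 67.1% of all genes tested. In TPM, which is per transcript length, they did not overlap for 8 of the 10 members and for 59.8% of all genes. In bulk RNA, fewer cells with a transcript and less of it per cell cannot be told apart.

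**Figure D1:**
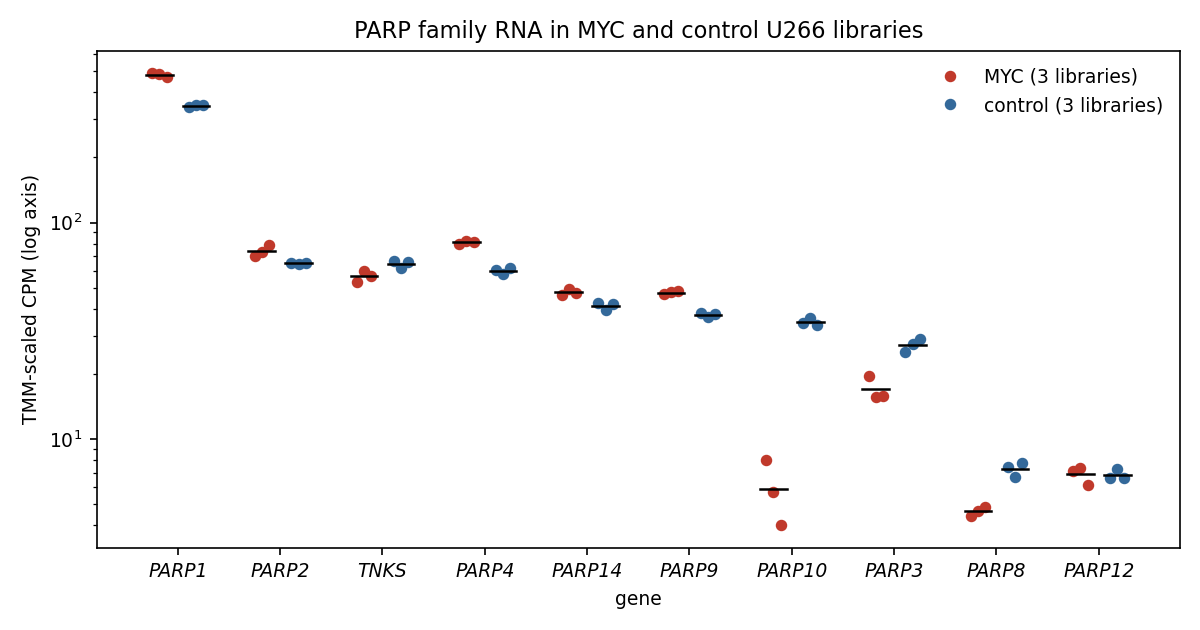
TMM-scaled CPM of each PARP family gene on a log axis, with MYC libraries left (red) and control libraries right (blue); points are libraries and lines are means of 3. PARP1 lies at 469 to 488 CPM in MYC libraries and at 341 to 348 CPM in controls, PARP10 drops to 4.01 to 8.02 CPM against 33.6 to 36.3 CPM, and only PARP12 overlaps between the groups.

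PARP1 (ENSG00000143799.8, chromosome 1) senses DNA breaks and makes most of the ADP-ribose chains formed after damage. It had 488, 486 and 469 CPM in MYC libraries, against 341, 348 and 348 CPM in controls. Every MYC library lay above every control. The log2 fold change was 0.48 ± 0.05 (SE), 1.39-fold, with an adjusted p of 9.06e-05 in edgeR, and with the GC offset it was also 0.48 (± 0.04, adjusted p = 4.17e-06, edgeR). PARP1 transcripts have 51.5% GC, and genes with 50 to 54% had a median of -0.02 and quartiles of -0.37 and 0.29. The log2 fold change of PARP1 lay above the upper quartile.

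The deposited TPM, which divides by effective length, showed a smaller difference for PARP1. TPM was 160, 164 and 170 in MYC libraries and 146, 135 and 138 in controls, a ratio of means of 1.18. The effective length is the transcript length available to reads, averaged over a gene's transcripts by their estimated abundance. For PARP1 it was 3685, 3683 and 3675 bases in MYC libraries and 3123, 3252 and 3311 bases in controls, 14.0% longer on average. PARP1 was the one member whose effective lengths did not overlap between the groups. Among all genes tested 26.1% did not overlap, 8.48% with MYC above and 17.6% with MYC below, and 6.39% had a ratio of mean lengths at least that of PARP1. With the effective length as an offset, the log2 fold change of PARP1 was 0.27 (adjusted p = 0.00275, edgeR), and with both offsets, a fit added after seeing the data, it was 0.26 (adjusted p = 0.00131, edgeR).

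**Figure D2:**
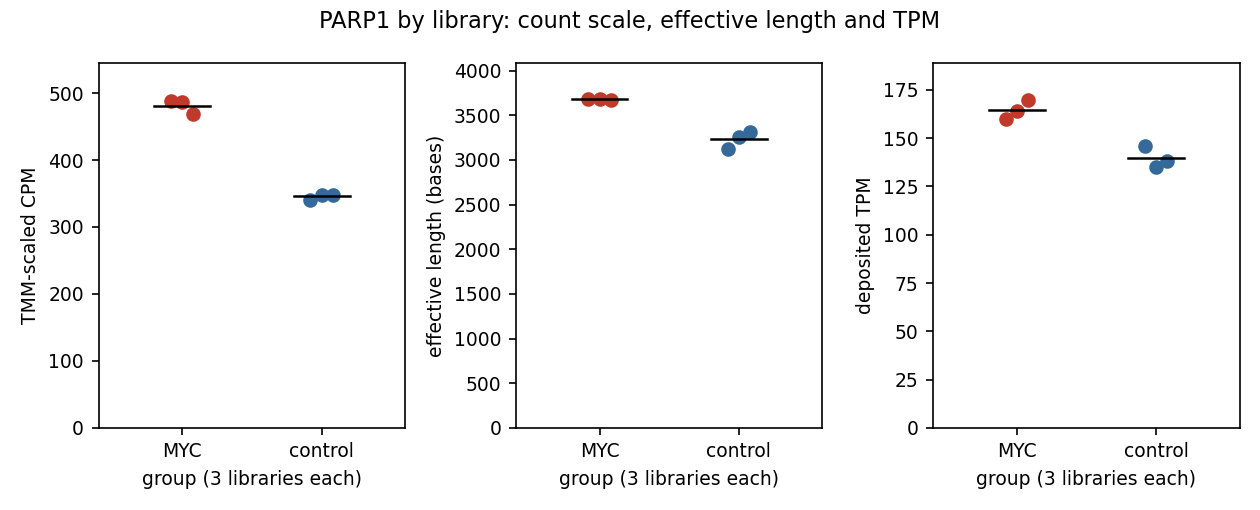
PARP1 in each library as TMM-scaled CPM, effective length in bases and deposited TPM, with MYC left and control right; points are libraries, lines are means of 3, and all axes start at 0. The groups separate on all 3 scales, by 1.39-fold in CPM and by a ratio of 1.18 in TPM, with a 14.0% longer effective length in MYC.

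PARP2 (ENSG00000129484.9, chromosome 14) is the close relative of PARP1 that shares its response to DNA breaks. It had 70.0, 73.4 and 79.0 CPM in MYC libraries and 65.1, 64.6 and 65.2 CPM in controls. The MYC libraries were all higher but more spread. Its log2 fold change was 0.19 ± 0.06 (adjusted p = 0.0222, edgeR), close to the median of 0.20 for genes with 42 to 46% GC, and with the GC offset it was -0.03 (adjusted p = 0.608, edgeR). PARP2 therefore has no stated direction. Its call also ended without MYC replicate 2 (log2 fold change 0.20, adjusted p = 0.067) and without control replicate 1 (0.17, adjusted p = 0.0803), 2 (0.18, adjusted p = 0.0853) or 3 (0.19, adjusted p = 0.0808, all edgeR).

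PARP3 (ENSG00000041880.10, chromosome 3), a nuclear member that acts in double-strand break repair, had 19.5, 15.6 and 15.9 CPM in MYC libraries, against 25.3, 27.5 and 28.9 CPM in controls. All MYC libraries were lower. It fell by 0.69 ± 0.10 on the log2 scale (adjusted p = 0.00039, edgeR). Genes with 58 to 62% GC, the range of PARP3 (58.4%), had a median of -0.73. With the GC offset the log2 fold change was -0.13 ± 0.07 and the call ended (adjusted p = 0.132, edgeR).

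The tankyrase TNKS (ENSG00000173273.11, chromosome 8) adds ADP-ribose chains to telomere proteins and to axin, which marks axin for breakdown. It had 52.9, 59.6 and 56.8 CPM in MYC libraries, against 66.4, 61.8 and 65.8 CPM in controls. The groups lay close but apart. The log2 fold change was -0.19 ± 0.06 (adjusted p = 0.0278, edgeR). The TNKS call ended without MYC replicate 1 (-0.15, adjusted p = 0.0908) or control replicate 3 (-0.19, adjusted p = 0.0895, both edgeR). It also ended on log2(TPM + 1) (-0.24, adjusted p = 0.0872) and log2(TPM + 0.1) (-0.26, adjusted p = 0.0805, both limma). With the GC offset TNKS was lower by more, at -0.41 ± 0.05 (adjusted p = 4.8e-05, edgeR). TNKS2, the second tankyrase, had 123 to 128 CPM in MYC libraries and 129 to 148 CPM in controls. It was not called without the offset (-0.14 ± 0.06, adjusted p = 0.0867), except when control replicate 2 was left out (-0.20, adjusted p = 0.0242) or genes under a mean CPM of 5 were dropped (-0.15, adjusted p = 0.0418), and was lower with it (-0.38 ± 0.03, adjusted p = 1.73e-05, edgeR).

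PARP4 (ENSG00000102699.5, chromosome 13) is the member found in vault particles, large cytoplasmic ribonucleoproteins. It had 79.9, 82.3 and 81.5 CPM in MYC libraries and 60.3, 57.8 and 61.6 CPM in controls. Both groups were tight and did not overlap. PARP4 rose by 0.44 ± 0.05 on the log2 scale (adjusted p = 0.000163, edgeR), and by 0.22 ± 0.04 with the GC offset (adjusted p = 0.000999, edgeR).

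PARP8 (ENSG00000151883.12, chromosome 5), a little-studied member that attaches single ADP-ribose units, was among the least abundant. It had 4.43, 4.66 and 4.86 CPM in MYC libraries, from 117, 725 and 264 counts, against 7.44, 6.71 and 7.77 CPM in controls. All MYC libraries were lower. The log2 fold change was -0.65 ± 0.09 (adjusted p = 0.000394, edgeR) and -0.88 ± 0.08 with the GC offset (adjusted p = 1.11e-05, edgeR), and genes of its GC range had a median of 0.20. In TPM the difference was smaller, at 3.43, 2.89 and 3.93 in MYC libraries and 4.98, 4.56 and 5.11 in controls, and the groups still did not overlap.

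PARP9, PARP14 and PARP12 are known as interferon-induced genes. PARP9 and PARP14 carry macrodomains, modules that bind ADP-ribose, and PARP12 carries zinc fingers and attaches single units. Promoters of 7 of the 10 members (PARP1, PARP2, PARP3, PARP8, PARP9, PARP12 and PARP14) were matched in RefSeq sequences on GRCh38.p14, each covering 250 bases before and 50 after a gene start. Promoters of PARP4, PARP10 and TNKS were not searched. Those of the 7 were searched on both strands for the core of the interferon response element, GAAA, any 2 bases and GAAA again. The 3 promoters that hold it, those of PARP9, PARP14 and PARP12, are shown 5′ to 3′ on the gene's strand. Capitals mark this core or its reverse complement.
PARP9 (chr3:122564251-122564550, minus strand): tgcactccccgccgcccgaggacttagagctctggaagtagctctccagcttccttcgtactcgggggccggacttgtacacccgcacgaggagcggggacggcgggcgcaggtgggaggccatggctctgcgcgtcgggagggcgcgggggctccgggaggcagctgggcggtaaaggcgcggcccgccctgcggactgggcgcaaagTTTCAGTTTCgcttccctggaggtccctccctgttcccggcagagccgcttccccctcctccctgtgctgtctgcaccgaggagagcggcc
PARP14 (chr3:122680589-122680888, plus strand): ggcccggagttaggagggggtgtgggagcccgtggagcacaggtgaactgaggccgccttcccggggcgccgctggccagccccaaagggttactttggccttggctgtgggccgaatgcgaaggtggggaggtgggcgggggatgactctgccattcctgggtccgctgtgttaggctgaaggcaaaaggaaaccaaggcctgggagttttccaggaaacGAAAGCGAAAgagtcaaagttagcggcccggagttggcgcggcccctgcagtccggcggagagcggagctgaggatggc
PARP12 (chr7:140062902-140063201, minus strand): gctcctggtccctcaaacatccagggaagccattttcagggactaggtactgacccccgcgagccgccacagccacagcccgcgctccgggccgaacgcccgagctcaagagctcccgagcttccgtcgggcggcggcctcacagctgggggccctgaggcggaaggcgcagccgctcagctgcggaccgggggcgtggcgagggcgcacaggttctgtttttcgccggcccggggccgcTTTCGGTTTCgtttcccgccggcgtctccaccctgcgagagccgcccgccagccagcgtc
The core was present in 3.57% of 35116 promoters of this length, and in at least 1 promoter of 4.38% of 27305 genes. Relative to the gene start its first base lies at -41 in PARP9 (in 1 of its 2 listed starts, the other holding no core), at -29 in PARP14 and at -10 in PARP12. The PARP9 site, at bases 122564332 to 122564341, is also the site in the promoter of DTX3L, which is transcribed in the opposite direction. The STAT element core TTCNNNGAA was present in PARP14, where it stands before the capitals without overlapping them, and in PARP2. It was present in 7.66% of all promoters (9.38% of genes). The E-box CACGTG, which MYC binds, was in none of the promoters of the 7 members and in 7.26% of all promoters (8.77% of genes). A match describes these letters and does not show binding.

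PARP9 (ENSG00000138496.12, chromosome 3) had 46.6, 47.7 and 48.3 CPM in MYC libraries, against 38.2, 36.7 and 37.8 CPM in controls. The groups were separate and tight. It rose by 0.34 ± 0.05 on the log2 scale (adjusted p = 0.000739, edgeR) and by 0.12 ± 0.04 with the GC offset (adjusted p = 0.018, edgeR). With the GC offset its call ended without MYC replicate 2 (0.11), control replicate 1 (0.10), control replicate 2 (0.11) or control replicate 3 (0.12), and with the effective length added to that offset (0.05, adjusted p = 0.35). DTX3L, the ubiquitin ligase partner that shares the start region of PARP9, had 72.8, 77.1 and 77.0 CPM in MYC libraries and 65.1, 59.3 and 59.9 CPM in controls. DTX3L thus also lay higher in every MYC library. The size was 0.30 ± 0.06 on the log2 scale (adjusted p = 0.00252, edgeR) and 0.12 ± 0.04 with the GC offset (adjusted p = 0.019, edgeR). With that offset its call ended without MYC replicate 2 (0.11), control replicate 2 (0.10) or control replicate 3 (0.09), and with effective length added to it (0.10, adjusted p = 0.129). On log2(TPM + 1) the DTX3L difference was 0.24 and not called (adjusted p = 0.0518, limma). The 2 genes share 217 exonic bases on opposite strands, 2.43% of those of PARP9, which libraries without strand do not tell apart.

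PARP14 (ENSG00000173193.9, chromosome 3), known as a cofactor of STAT6, had 46.3, 49.3 and 47.4 CPM in MYC libraries and 42.6, 39.3 and 42.3 CPM in controls. The MYC libraries were all higher, by a small margin. Its log2 fold change was 0.20 ± 0.06 (adjusted p = 0.0172, edgeR), close to the median of 0.20 for genes of its GC range, and with the GC offset it was -0.03 ± 0.04 (adjusted p = 0.548, edgeR), and PARP14 has no stated direction. Its call also ended without MYC replicate 2 (0.18, adjusted p = 0.0876), control replicate 2 (0.16, adjusted p = 0.0763) or control replicate 3 (0.21, adjusted p = 0.054, all edgeR).

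PARP12 (ENSG00000059378.8, chromosome 7) had 7.15, 7.33 and 6.16 CPM in MYC libraries and 6.64, 7.31 and 6.65 CPM in controls. The groups overlapped. Its log2 fold change was 0.003 ± 0.10 (adjusted p = 0.98, edgeR), and -0.10 ± 0.08 with the GC offset (adjusted p = 0.316, edgeR). No difference was called, and a difference larger than this SE could also have been missed. Of the 7 members whose promoters were searched, the 3 with the interferon core (PARP9, PARP14 and PARP12) had log2 fold changes of 0.34, 0.20 and 0.003. With the GC offset these were 0.12, -0.03 and -0.10.

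PARP10 (ENSG00000178685.9, chromosome 8), which attaches single ADP-ribose units and is known to interact with MYC protein, fell furthest. It had 8.02, 5.73 and 4.01 CPM in MYC libraries, from 212, 892 and 218 counts, against 34.5, 36.3 and 33.6 CPM in controls. The MYC libraries spread more among themselves than the controls did, and all lay far below them. The fall was 6.04-fold, or -2.60 ± 0.20 on the log2 scale (adjusted p = 1.72e-05, edgeR). PARP10 transcripts have 64.9% GC, and genes with 62 to 66% had a median of -1.26. With the GC offset the fall was 2.37-fold, -1.24 ± 0.09 (adjusted p = 3.59e-06, edgeR), and was called. Of the exonic bases of PARP10, 5.37% overlap GRINA on the other strand, a gene at 58.8 CPM in MYC libraries and 95.5 CPM in controls, and the part of this overlap in the result was not tested.

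**Figure D3:**
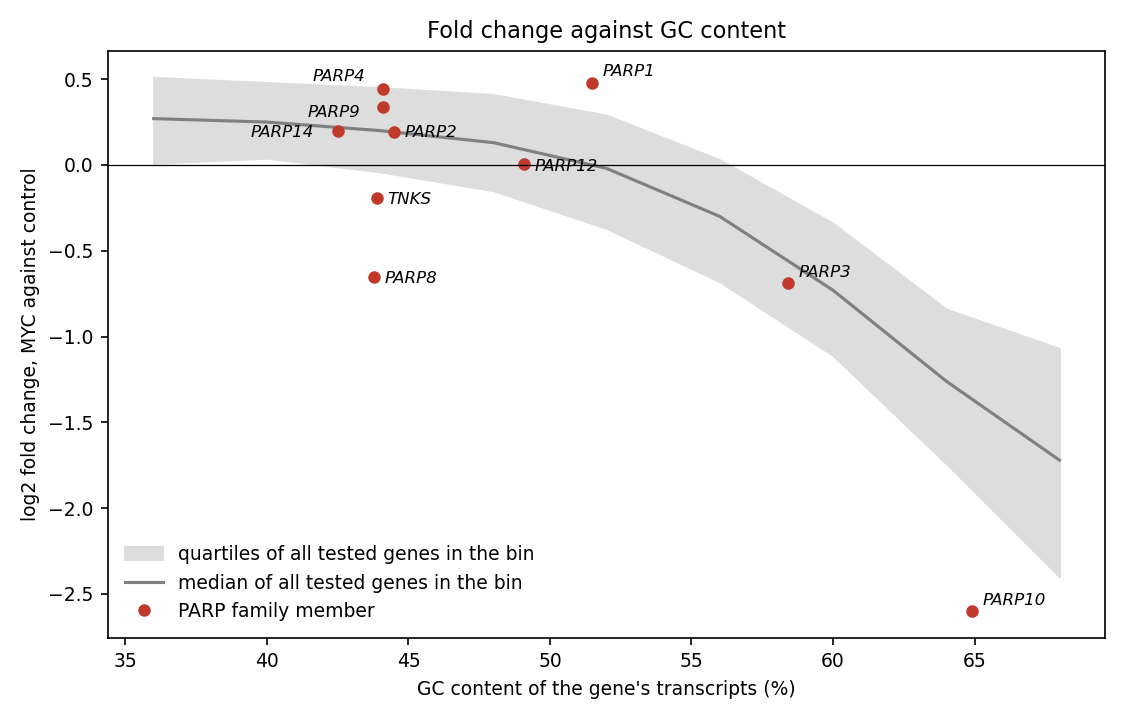
Log2 fold change of MYC against control over the GC content of a gene's transcripts in percent; the grey line and band are the median and quartiles of all genes tested per GC bin, drawn at bin centres (the outer bins at 36 and 68%), and red points are PARP family members. PARP2, PARP14 and PARP3 lie on the grey line, PARP1 and PARP4 above it, and TNKS, PARP8 and PARP10 below it.

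**Figure D4:**
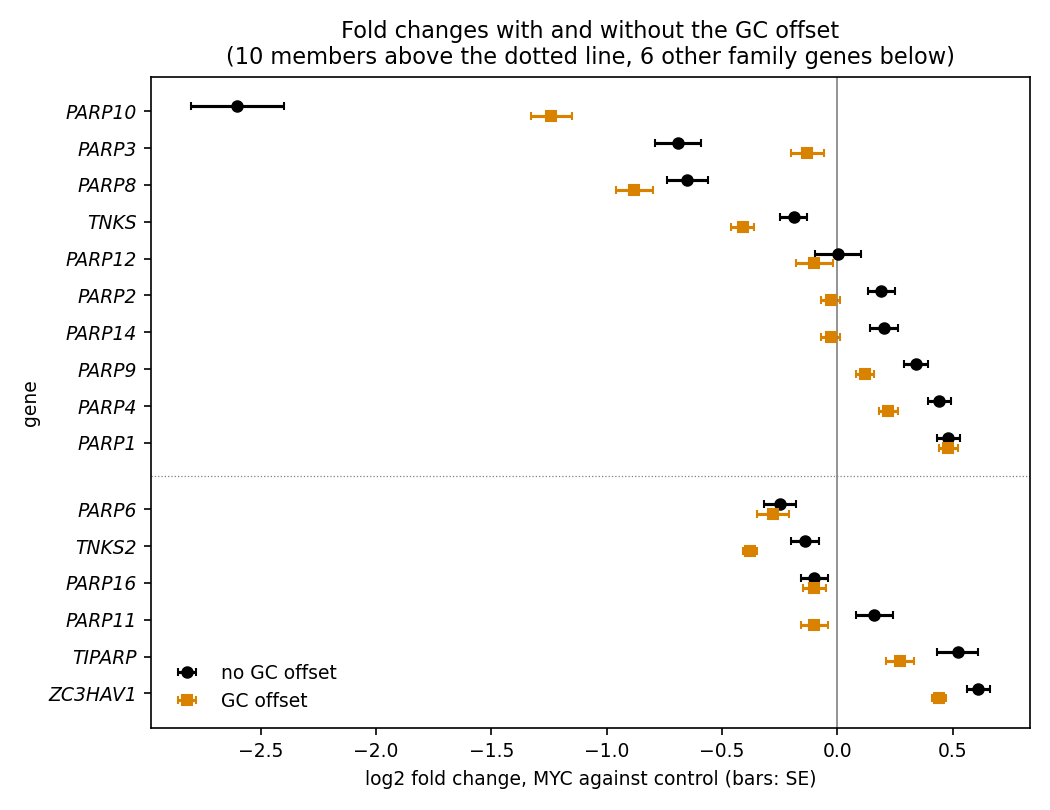
Log2 fold changes with SE, MYC against control, without (black circles) and with (orange squares) the GC offset, for the 10 members above the dotted line and 6 other family genes below it. PARP1 stays at 0.48 under both, PARP10 moves to -1.24 with the offset and -2.60 without it, and PARP2 and PARP14 move to -0.03.

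Levels between genes are compared in TPM, per transcript length. In MYC libraries the order by mean TPM was PARP1 (165), PARP2 (58.2), PARP4 (19.6), PARP9 (19.4), PARP3 (11.8), TNKS (8.77), PARP14 (8.05), PARP10 (4.42), PARP12 (4.39) and PARP8 (3.42). In control libraries it was PARP1 (140), PARP2 (52.2), PARP10 (27.2), PARP3 (19.0 to 21.8 over the libraries), PARP9 (16.2), PARP4 (15.0), TNKS (10.5), PARP14 (7.07), PARP8 (4.88) and PARP12 (4.31). The MYC libraries of PARP4 and PARP9, of TNKS and PARP14, and of PARP10 and PARP12 overlapped, as did the control libraries of PARP9 and PARP4, and other neighbours in each order did not. PARP10 thus stood at rank 8 in MYC cells and at rank 3 in controls. TPM carries no GC offset, and on counts the fall of PARP10 was 6.04-fold without that offset and 2.37-fold with it. The part of the GC trend in these ranks and in the shares below was not tested. The summed TPM of the 10 members was 303 ± 14.8 in MYC libraries and 297 ± 9.37 in controls (SD, n = 3 each), which differed by less than the spread. Within that sum PARP1 held 54.4 ± 1.07% in MYC libraries and 47.0 ± 0.612% in controls, and PARP10 held 1.48 ± 0.56% in MYC libraries and 9.18 ± 0.923% in controls.

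Of the 7 other family genes, 6 were tested: 2 rose, 1 fell and 3 were not called, with a median of 0.03. Over all genes tested, 28.8% rose and 32.1% fell. ZC3HAV1, the antiviral zinc finger protein also called PARP13, had 88.1, 90.3 and 88.1 CPM in MYC libraries against 59.1, 57.6 and 58.3 CPM in controls. Its log2 fold change was 0.61 ± 0.05 (adjusted p = 2.53e-05, edgeR) and 0.44 ± 0.03 with the GC offset. TIPARP, a target gene of the aryl hydrocarbon receptor, rose by 0.52 ± 0.09 (adjusted p = 0.0016, edgeR) and by 0.27 with the offset. PARP6 stood at -0.25 ± 0.07 on the log2 scale (adjusted p = 0.017, edgeR) and -0.28 with the offset, and its call ended without MYC replicate 2 (-0.23), control replicate 2 (-0.25) or control replicate 3 (-0.21). PARP11 and PARP16 were not called without or with the offset. PARP15, which lies beside PARP9 and PARP14 on chromosome 3, had at most 0.0257 CPM in any library and was not tested.

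Of 16 genes that remove ADP-ribose or act beside the PARP enzymes, 15 were tested, and 6 were called higher and 5 lower (median 0.07). Under the GC offset the counts were 7 and 5. Over all genes tested, 28.8% were higher and 32.1% lower, and with the offset 30% and 29.3%. CHD1L, a chromatin remodeller that PARP1 activates, had 99.1, 102 and 108 CPM in MYC libraries against 54.8, 51.3 and 52.0 CPM in controls, and rose. Its log2 fold change was 0.97 ± 0.06 (adjusted p = 5.66e-06, edgeR), and 0.80 ± 0.04 with the offset. ADPRH, a hydrolase that takes ADP-ribose off arginine, rose by 0.62 ± 0.07 (adjusted p = 8.17e-05, edgeR) and by 0.90 with the offset. APLF, a histone chaperone that binds ADP-ribose chains, had -0.52 ± 0.11 (adjusted p = 0.0038, edgeR) and -0.74 ± 0.09 with the offset. PROKR1 overlaps 22.8% of the exonic bases of APLF on the same strand, and its part in the result was not tested. PARG, which cuts ADP-ribose chains, stood at 0.20 ± 0.08 on the log2 scale (adjusted p = 0.0492, edgeR) and -0.003 with the offset, and has no stated direction. Its call also ended when any library other than MYC replicate 1 was left out (0.15 to 0.23). HPF1, which directs PARP1 and PARP2 to serine, had 0.30 ± 0.08 (adjusted p = 0.0107, edgeR), and its call ended with the offset (0.03) and without control replicate 2 (0.23). On the tankyrase side, TNKS1BP1, a tankyrase-binding protein, fell by 1.38 ± 0.13 on the log2 scale (adjusted p = 4.46e-05, edgeR) and by 0.60 with the offset, but the call ended with GC content and effective length both in the offset (-0.12). AXIN2, a Wnt pathway scaffold and tankyrase target, fell by 1.35 ± 0.12 (adjusted p = 3.71e-05, edgeR) and by 0.96 with the GC offset. It lay low, at 1.32 CPM in MYC libraries and 3.38 CPM in controls. Of its exonic bases 25.2% overlap AC004805.1 on the same strand, and the part of this overlap in the result was not tested. AXIN1, the other axin, stood at -0.90 ± 0.10 (adjusted p = 0.000106, edgeR) but at 0.42 ± 0.05 with the offset (adjusted p = 5.68e-05, edgeR), and has no stated direction. RNF146, the ubiquitin ligase that recognises proteins marked by tankyrase, was not called (-0.12 ± 0.05) except with genes under a mean CPM of 5 dropped (-0.13), and was lower with the offset (-0.33 ± 0.04, adjusted p = 7.53e-05, edgeR). TERF1, a telomere protein that tankyrase modifies, was not called at 0.07 ± 0.07 and stood at -0.19 ± 0.04 with the offset (adjusted p = 0.00255, edgeR), so its sign depends on it. USP25, a deubiquitinase that acts on tankyrase, rose by 0.43 ± 0.06 (adjusted p = 0.000514, edgeR) and by 0.16 with the offset, and its call ended once effective length was added (0.12).

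Among the hydrolases, 2 more changed sign with the GC offset. ADPRS, which takes ADP-ribose off serine, stood at -0.49 ± 0.09 (adjusted p = 0.00161, edgeR) and at 0.12 ± 0.04 with the offset (adjusted p = 0.0155, edgeR), where its call ended without control replicate 2 (0.11) or control replicate 3 (0.10). MACROD1 averaged 0.546 CPM in MYC libraries and 0.707 CPM in controls, which overlapped. It was not called (-0.38 ± 0.30, adjusted p = 0.305, edgeR) except without control replicate 1 (-0.65), and stood at 1.09 ± 0.27 with the offset (adjusted p = 0.00641, edgeR), where its call ended without MYC replicate 2 (0.98). OARD1, which also removes ADP-ribose, was not called without or with the offset.

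Of 20 genes of single-strand break and base excision repair, the pathway in which PARP1 acts, 9 were called higher and 8 lower (median 0.08). Under the GC offset 10 were higher and 3 lower (median 0.13). Over all genes tested, 28.8% were higher and 32.1% lower, and with the offset 30% and 29.3%. XRCC1, the scaffold that ADP-ribose chains recruit to breaks, fell by 0.86 ± 0.09 on the log2 scale (adjusted p = 8.22e-05, edgeR), at 44.5 ± 5.21 CPM in MYC libraries and 80.4 ± 4.73 CPM in controls, and by 0.27 with the offset. UNG, which removes uracil from DNA, rose by 0.65 ± 0.05 (adjusted p = 1.89e-05, edgeR) and by 0.69 with the offset. MPG, a glycosylase for alkylated bases, fell by 2.37 ± 0.18 (adjusted p = 1.76e-05, edgeR), or 5.16-fold, and 2.14-fold with the offset. The glycosylase MUTYH had -1.11 ± 0.10 (adjusted p = 3.15e-05, edgeR) and -0.33 with the GC offset, and 0.11, not called, once effective length was added to that offset, and has no stated direction.

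Of 33 interferon response genes, 17 rose and 13 fell (median 0.18), while 14 were higher and 12 lower under the GC offset (median 0.02). For this list and the next, the shares over all genes tested were 28.8% higher and 32.1% lower, and 30% and 29.3% with the offset. IFIT3 rose by 1.55 ± 0.06 (adjusted p = 5.85e-07), IFI44 by 1.44 ± 0.09 (adjusted p = 8.8e-06) and IFI44L by 1.58 ± 0.12 (adjusted p = 1.72e-05), whereas the exonuclease gene ISG20 fell by 2.49 ± 0.13 (adjusted p = 3.22e-06, all edgeR). These 4 were called in the same directions with the GC offset. Of 11 genes of NAD supply, 8 were tested, 5 fell and 3 were not called (median -0.29), and with the GC offset 4 fell and 1 rose (median -0.22). NMRK1, a nicotinamide riboside kinase, fell by 0.32 ± 0.08 (adjusted p = 0.00742, edgeR) and by 0.55 with the offset. NAPRT, which uses nicotinic acid, fell by 2.50 ± 0.22 (adjusted p = 3.12e-05, edgeR) but lay at 0.207 CPM in MYC libraries and 1.07 CPM in controls, and by 0.83 with the offset. With the offset its call ended without MYC replicate 2 (-0.41) or control replicate 3 (-0.77). NADK, the NAD kinase, had -0.71 ± 0.12 (adjusted p = 0.000815, edgeR) and NADSYN1, the NAD synthetase, -0.40 ± 0.11 (adjusted p = 0.0128, edgeR), and both calls ended with the offset (-0.10 for NADK and -0.12 for NADSYN1).

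**Figure D5:**
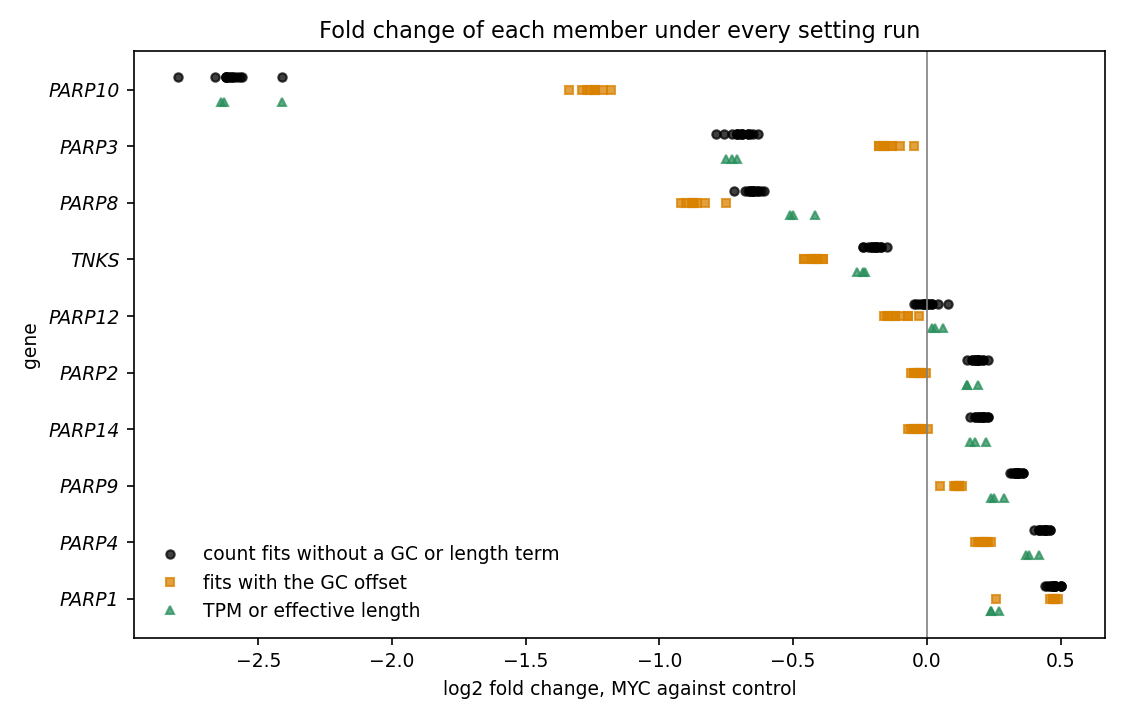
Log2 fold change of each PARP family member, MYC against control, under every setting run: count fits without a GC or length term (black), fits with the GC offset (orange) and fits on TPM or with the effective length alone (green). PARP1, PARP4 and PARP9 stay above 0, PARP3, PARP8, PARP10 and TNKS stay below 0, and PARP2, PARP12 and PARP14 reach or cross it.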

How the data were processed

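Libraries were poly-A enriched and unstranded and ran on an Illumina HiSeq, per the labels' protocols. The submitters' processing notes name cutadapt, TopHat2 and the build GRCh37. No version or annotation is given in the sources. The authors deposited, per the file headers, RSEM gene tables that hold an expected count (estimated, with reads shared among similar genes), a TPM and an effective length in bases. Expected counts were whole (within 0.005) in every library for 7 members and fractional in at least 1 for PARP4, PARP9 and TNKS.

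Of 57820 identifiers, 51996 matched a symbol. Expected counts were rounded and tested with edgeR 4.0.16 (R 4.3.3): default filter, TMM factors, group as the only term, quasi-likelihood F test and Benjamini-Hochberg adjustment over 17679 genes. The SE is the log2 fold change divided by the root of F. Limma 3.58.1 and DESeq2 1.42.0 were alternatives. The GC offset removes, per library, a loess curve (span 0.4) fitted to log2 CPM (prior count 2) over mean GC content of GENCODE 29 transcripts, with TMM factors computed again (17049 genes). On simulated counts for 17338 genes of this comparison 64.6% of changes of size 1.5, 89.4% of size 2 and 98.5% of size 4 were recovered. Of 181 calls, 16 fell on unchanged genes. The simulation changed 200 genes, whereas 60.8% of genes were called in the data, so these rates may not hold for the calls reported here.

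Libraries within a group differed by more than sampling noise (chi-square over degrees of freedom of 8.45 to 40.4 across genes), and the first principal component (79.1% of the variance) separated the groups. The members, lists and tests were chosen with earlier results of these data known. The text names all 10 members, any gene of the family and partner lists, and the 4 called genes with the smallest adjusted p in each other list. Within the family and partner lists the genes described were chosen after their values were seen. Overlapping genes were named for their overlap. Among the cell type markers, IGLC2, CD38 and LUM were named after their values were seen. Counting error is not given as an interval, since reads lack molecular identifiers and so are not independent molecules.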

Additional observations from a re-analysis of the deposited data

How the results depend on the processing

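The settings run were RLE factors, total counts, DESeq2, limma-voom, log2 TPM with 2 pseudocounts, no filter and a filter at 5 CPM, a fit that drops MYC with the 20 top genes by abundance, an effective length offset, the GC offset, a replicate block and leaving out each library. PARP1, PARP4, PARP8 and PARP10 kept their direction and call under all of them. A filter at a mean CPM of 5 gave 3694 genes called lower among the 10563 it kept, against 5671 of 17679 with the default filter. The count of members called higher was 3 with log2(TPM + 1), log2(TPM + 0.1), no expression filter, the GC offset, the replicate block and the GC offset with the block, and 2 with GC content and effective length both in the offset. It was 3 to 5 when 1 library was left out, and 2 to 3 with the GC offset as well.

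PARP2 was -0.03 with the GC offset, -0.03 with the block added, -0.05 with effective length added, and -0.06 to -0.005 (-0.02 without MYC replicate 2 or control replicate 2) with the GC offset and 1 library left out. PARP14 was -0.03, -0.04, -0.03 and -0.07 to 0.005 (-0.02 without control replicate 3) in those settings. PARP12 was -0.01 with total counts, with no filter and with the filter at 5 CPM, -0.005 with the block, -0.10 with the GC offset, -0.12 with the block added, -0.07 with effective length added, -0.05 to 0.08 with libraries left out, and -0.16, -0.15, -0.14, -0.12, -0.07 and -0.03 with the GC offset as well. PARG was -0.003 with the GC offset, -0.001 with the block added, -0.03 with effective length added, and -0.04 to 0.02 with the GC offset and 1 library left out (-0.01 without control replicate 3). HPF1 was -7e-04 at the lowest and 0.05 at the highest with the GC offset and 1 library left out, and MUTYH was 0.11 with both offsets. AXIN1 was 0.42 with the GC offset, 0.42 with the block added, 0.40 with effective length added, and 0.38 to 0.44 (0.39 without control replicate 2 or 3, 0.42 without control replicate 1, 0.43 without MYC replicate 1) with a library left out. ADPRS was 0.12, 0.12, 0.11 and 0.10 to 0.14 in those settings. MACROD1 was 1.09, 1.07, 1.28 and, with a library left out, 0.86, 0.98, 1.1, 1.15, 1.2 and 1.24. TERF1 was -0.19, -0.20, -0.21 and, with a library left out, -0.22 to -0.18. Beyond what these values show, the cause was not tested.

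Replicate numbers did not pair the samples: deviations of same-numbered libraries correlated at -0.05, 0.08 and 0.11, and not every library correlated best with its own number. With the replicate block the calls of PARP2 (log2 fold change 0.19, adjusted p = 0.0565), PARP14 (0.21, adjusted p = 0.0571) and TNKS (-0.20, adjusted p = 0.0722, all edgeR) ended. Low counts limit PARP8, PARP10 and PARP12, which had under 300 counts in the shallowest library. The added settings were chosen after seeing the data: the GC offset without each library, and with effective length.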

Other observations

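Rows of the files for processed or duplicated copies of members were near 0. PARP1P1 averaged 0.0546 CPM in MYC libraries and 0.011 CPM in controls, and PARP4P1 averaged 0.134 CPM in MYC libraries and 0.0742 CPM in controls. PARP1P2 was at 0 in every library. The antisense gene AC021242.3, whose exons cover 4.28% of the exonic bases of TNKS, averaged 0.0956 CPM in MYC libraries and 0.465 CPM in controls. These genes were looked up for their names or their overlap after the values of the members were seen.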
